A study of Mus musculus with 12 samples.

Results

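The T cell receptor beta chain (TRB) family CASSRTGGxQDTQYF is a set of CDR3 amino acid sequences of 15 residues that differ only at residue 9, written x. Members were taken by sequence from the TRB rows of 8 libraries: 11 CDR3 sequences matched the family, and 207 further sequences of the same length differed from a family sequence at 1 more position and are called neighbours here. Together they were 218 of the 4214 different TRB CDR3 amino acid sequences, and 491 of the 6921 nucleotide sequences. The family was selected on its read counts in these libraries, so its shares are given as a description with no test.

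T cell receptor transcripts were sequenced from sorted CD8+ T cells stained by an Rpl18 tetramer, a labelled peptide-MHC complex that marks T cells specific for that peptide. All mice had been injected with MC38 cells, a mouse colon adenocarcinoma line, and cells were sorted on day 10 from the tumor or from the tumor-draining lymph node (TDLN). KO mice carried a CD8-specific knockout of TrIP, a name used for a transmembrane inhibitor of PI3K signalling, and WT mice did not. The study has 12 libraries in 4 groups of 3. TRB rows were analysed for 8 of them: KO tumor 1, 2 and 3, WT tumor 2, 3 and 4, KO TDLN 3 and WT TDLN 4. The deposited tables give WT tumor 2 the number 1, and its library name tied it to the label. The labels give neither strain, sex nor age, nor the driver of the CD8-specific deletion, and they do not say whether a library came from 1 mouse or from pooled mice. The p-values below therefore measure only the spread between libraries. They also treat the libraries as independent, which the clones shared between libraries, described below, put in doubt. Receptor reads do not show TrIP, so the knockout itself was not checked.

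Productive TRB reads numbered between 53402 and 188616 in the tumor libraries, and 88840 in KO TDLN 3 and 23755 in WT TDLN 4. Receptor transcripts of B cells were nearly absent, with 1 immunoglobulin light chain read in KO tumor 1, and rows called TRA/TRD held at most 117 reads, in WT tumor 2. Because the primers were specific for TCR transcripts, these reads say little of other cells. Libraries overlapped in their clones. Of the TRB reads of KO tumor 2, 94.2% lay in nucleotide sequences that made up at least 0.1% of KO tumor 3, and 36.9% of the reads of KO tumor 3 lay in those of KO tumor 2. KO tumor 1 and WT tumor 4, which differ in genotype, overlapped as well: 20.5% of the KO tumor 1 reads lay in sequences at that level in WT tumor 4, and 91.1% of the WT tumor 4 reads in those of KO tumor 1. WT tumor 3 and KO TDLN 3 overlapped too, with 66.3% of the WT tumor 3 reads in sequences at that level in KO TDLN 3. WT tumor 2 and WT tumor 3 overlapped less. Of the WT tumor 2 reads 7.21% lay in sequences at that level in WT tumor 3, and 8.03% the other way. With all members left out, the shares were 91.2% and 27.8% for KO tumor 2 and KO tumor 3. They were 17.2% and 89.4% for KO tumor 1 and WT tumor 4, and 7.81% and 9.87% for WT tumor 2 and WT tumor 3. The overlap therefore did not rest on the family, and why libraries share clones was not tested. Each comparison of KO with WT below is also given without KO tumor 3 and WT tumor 4. That keeps 1 library of the pair KO tumors 2 and 3, and 1 of the pair KO tumor 1 and WT tumor 4. WT tumor 2 and WT tumor 3, which overlapped less, were both kept.

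The CDR3 is the loop of the receptor that is made at the junction of a V, a D and a J segment, and in most receptors it lies over the peptide held in the MHC groove. Enzymes trim the segment ends and add bases that no segment encodes, so the middle of a CDR3 varies most and the ends follow the V and J segments. Because several codons encode 1 amino acid, separate rearrangements can give the same protein from different DNA, which is known as convergent recombination. A CDR3 found in many animals is called public. The mouse TRB locus lies on chromosome 6. In the mouse the Trbj2-5 segment, which RefSeq places between Trbj2-4 and Trbj2-6, is known to encode Asn followed by QDTQYF, so that Asn at x is what the untrimmed segment would give. The 2 Trbd segments are rich in guanine and can encode glycine. The V segment names in the deposited table belong to a human set and were not used.

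The 9 nucleotide sequences below held 119084 of the family's 120034 reads, or 99.2%, and are shown because the whole comparison of clones turns on them. Each is the coding strand of the CDR3 as assembled in the libraries, 5′ to 3′, 45 bases long, named by its residue at x and numbered by size. Capitals mark the 6 bases that differ among these sequences.
Asn 1: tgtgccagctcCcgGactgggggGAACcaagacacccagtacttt
Asn 2: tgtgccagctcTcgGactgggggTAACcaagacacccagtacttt
Asn 3: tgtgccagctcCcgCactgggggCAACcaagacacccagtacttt
Asp 1: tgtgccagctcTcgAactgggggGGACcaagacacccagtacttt
Asp 2: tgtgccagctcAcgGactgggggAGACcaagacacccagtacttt
Asp 3: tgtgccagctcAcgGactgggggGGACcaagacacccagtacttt
Ser 1: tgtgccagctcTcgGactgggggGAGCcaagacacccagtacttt
Ala 1: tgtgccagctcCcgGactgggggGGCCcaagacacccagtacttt
Glu 1: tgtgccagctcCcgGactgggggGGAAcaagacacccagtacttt
The first 11 bases, the run ACTGGGGG and the last 18 bases were the same in all 9. The bases that differed lay at the end of the codon of residue 4, at the end of the codon of residue 5, at the end of the codon of residue 8 and in the codon of x. Asp 2 and Asp 3 fall outside the rule by which sequences were named and were added after their values were seen.

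In the tumor the family made up between 4.12% and 40.8% of productive TRB reads, and it was present in all 6 tumor libraries. Its share was 4.12% in KO tumor 1 (95% Wilson interval 3.99% to 4.26%, 3566 reads), 40.8% in KO tumor 2 (40.5% to 41.1%, 41325 reads) and 14.2% in KO tumor 3 (14.0% to 14.4%, 17380 reads). In WT tumors it was 7.58% in library 2 (7.36% to 7.81%, 4047 reads), 18.4% in library 3 (18.2% to 18.7%, 15066 reads) and 20.4% in library 4 (20.2% to 20.6%, 38431 reads). The intervals and floors given here cover counting error only, because no molecular identifiers are described and reads of 1 transcript are not independent. The lowest and the highest share both belonged to KO tumors, and the 3 WT values lay between them. The mean was 19.7% ± 18.9 in KO tumors and 15.5% ± 6.89 in WT tumors (SD, n = 3 each), a difference of 4.26 percentage points that is smaller than the spread of either group. Without KO tumor 2 the difference was -6.28 percentage points. Without KO tumor 3 and WT tumor 4, left out for their overlap, it was 9.46. That value holds for this choice of libraries only, because other choices from the overlapping pairs were not run.

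In both TDLN libraries the family held less than 1% of productive TRB reads. It had 19 reads in KO TDLN 3, a share of 0.0214% (0.0137% to 0.0334%), where 3 reads correspond to 0.00338%. In WT TDLN 4 it had 200 reads, a share of 0.842% (0.733% to 0.966%), where 3 reads correspond to 0.0126%. Its largest member there, with Asp at x, ranked 18 of 333 CDR3 sequences. In KO TDLN 3 its largest member, with Asn at x, ranked 161 of 1102. The tumor libraries of the same numbers held far more: 14.2% in KO tumor 3 against 0.0214% in KO TDLN 3, and 20.4% in WT tumor 4 against 0.842% in WT TDLN 4. Whether a number stands for 1 animal is not in the labels, and with 1 TDLN library per genotype this difference has no replicate check.

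**Figure D1:**
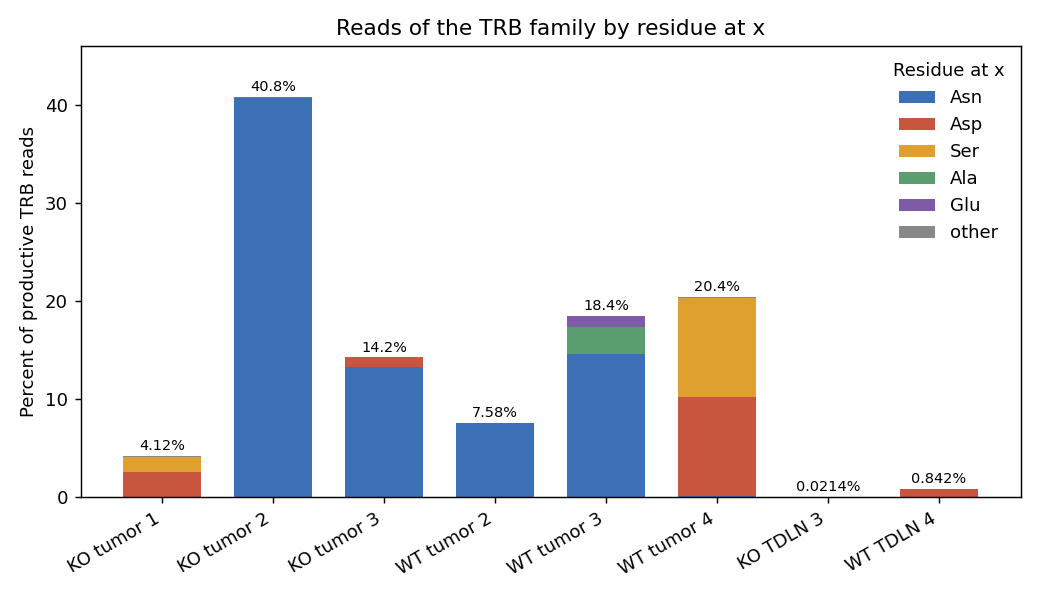
Percent of productive TRB reads (vertical axis) taken by the family in each of the 8 libraries, stacked by the residue at x, with the family total above each bar. Asn fills nearly the whole bar of KO tumor 2 (40.8%) and WT tumor 2 (7.58%), whereas Asp and Ser fill those of KO tumor 1 (4.12%) and WT tumor 4 (20.4%).

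Of the 11 residues found at x, 5 reached 1% of a library and held nearly all family reads. Asn accounted for 73451 reads or 61.2% of the family, Asp for 22845 reads or 19.0%, and Ser for 20458 reads or 17.0%. Ala followed with 1.87% and Glu with 0.732%. Glu was the member just inside the threshold of 1%, at 1.06% of WT tumor 3, and Gly was the member just outside it, at 0.0636% of WT tumor 4. Gly had 144 reads in all, Lys 6, Arg 3, Thr 3, Tyr 2 and His 1. Asn has an uncharged amide side chain, Asp and Glu are acidic, Ser carries a small hydroxyl group and Ala a methyl group.

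The member with Asn at x, encoded by Asn 1, Asn 2 and Asn 3, had 5, 41236 and 16122 reads in KO tumors 1, 2 and 3, and 4044, 11939 and 88 reads in WT tumors 2, 3 and 4. It had 16 reads in KO TDLN 3 and 1 read in WT TDLN 4, and was thus read in all 8 libraries. In 6 of them a nucleotide sequence of it reached 0.01% of productive TRB reads. WT tumor 4 was among the 6 through 68 reads of Asn 2, a share 402 times smaller than in WT tumor 3. KO TDLN 3 was among them through 16 reads of Asn 3, a share 416 times smaller than in WT tumor 2. The 1 read of WT TDLN 4 was a 1-base variant. Carry-over of reads between libraries was not tested. It was the largest TRB CDR3 of KO tumor 2, the second of 680 in KO tumor 3, the third of 277 in WT tumor 2 and the second of 453 in WT tumor 3.

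The member with Asp at x had 2154, 75 and 1248 reads in KO tumors 1, 2 and 3, and 0, 6 and 19170 reads in WT tumors 2, 3 and 4. It had 1 read in KO TDLN 3 and 191 reads in WT TDLN 4. It led the family in KO tumor 1, WT tumor 4 and WT TDLN 4.

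The member with Ser at x had 1390, 10 and 5 reads in KO tumors 1, 2 and 3, and 1, 4 and 19046 reads in WT tumors 2, 3 and 4. KO TDLN 3 had 2 reads of it and WT TDLN 4 none. The Ser member was therefore large only where the Asp member was also large, in KO tumor 1 and WT tumor 4.

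The Ala member had 2241 reads in WT tumor 3 and 1 read in WT tumor 4, with none in the other 6 libraries. The Glu member had 871 of its 879 reads in WT tumor 3. WT tumor 3 was thus the library with 3 large residues at x, Asn, Ala and Glu.

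The residue at x differed more between libraries of 1 genotype than between genotypes. With 1-base variants of large sequences left out, Asn made up 0.0848%, 99.99% and 92.9% of family reads in KO tumors 1, 2 and 3, and 99.95%, 79.3% and 0.181% in WT tumors 2, 3 and 4. Over all family reads, variants included, Asn was 0.140%, 99.8% and 92.8% in KO tumors 1, 2 and 3, and 99.9%, 79.2% and 0.229% in WT tumors 2, 3 and 4. Each genotype thus held 1 library with almost no Asn and 2 libraries in which Asn dominated. The means without variants were 64.3% ± 55.7 in KO tumors and 59.8% ± 52.7 in WT tumors (SD, n = 3 each), and an exact two-sided permutation test over libraries gave p = 0.9. Adjusted by Benjamini-Hochberg over the 3 values tested here it was 0.9, and 0.1 is the smallest p that 3 against 3 libraries allow. With KO tumor 3 and WT tumor 4 left out for their overlap, the difference was -39.6 percentage points in place of 4.50. Other choices from the overlapping pairs were not run, so -39.6 holds for this choice only.

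**Figure D2:**
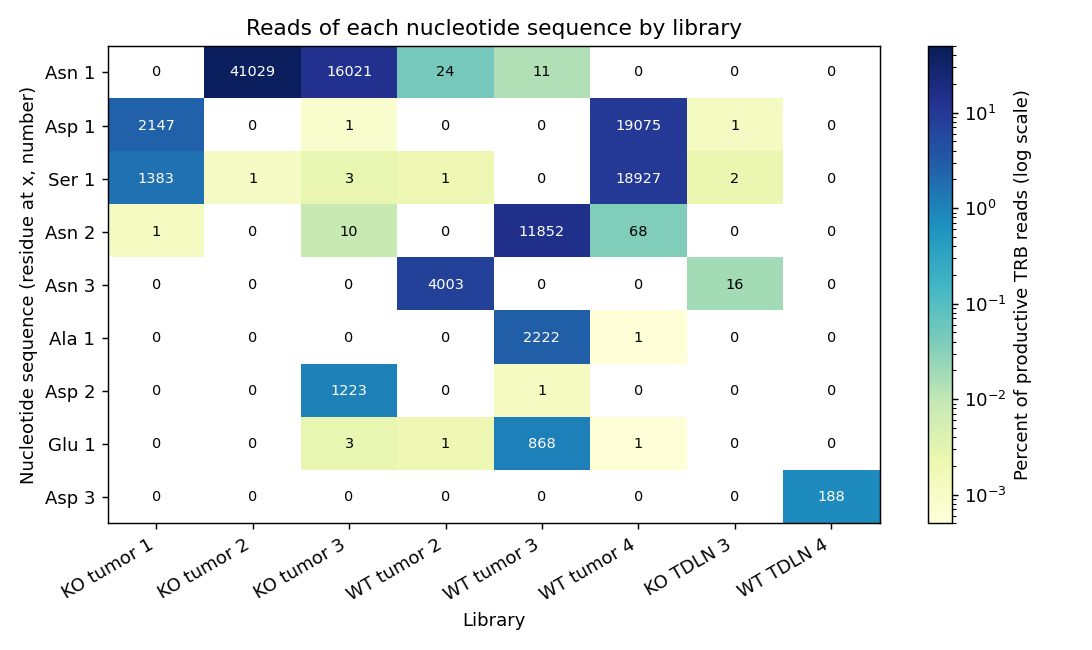
Read count of each of the 9 nucleotide sequences (rows) in the 8 libraries (columns); the colour gives the percent of productive TRB reads on a log scale and white cells hold 0 reads. Asn 1 is large in KO tumors 2 and 3 (41029 and 16021 reads), and Asp 1 and Ser 1 are both large in KO tumor 1 and WT tumor 4, whereas the other 6 sequences exceed 0.5% in 1 library each.

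Each large CDR3 of the family rested on 1 leading nucleotide sequence per library. Asn 1 had 41029 reads in KO tumor 2, or 40.5% of its productive TRB reads, and 16021 reads in KO tumor 3, or 13.1%. In KO tumor 2 it was 99.3% of the family. WT tumor 2 held 24 reads of the same sequence (0.0449%) and WT tumor 3 held 11 (0.0134%).

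Asn 2 encodes the same CDR3 with other bases. It had 11852 reads in WT tumor 3, or 14.5% of productive TRB reads, and 68 reads (0.0361%) in WT tumor 4, with 10 reads in KO tumor 3 and 1 in KO tumor 1. Asn 3 had 4003 reads in WT tumor 2, or 7.50%, and 16 reads in KO TDLN 3, or 0.0180%. The same amino acid sequence was thus carried by Asn 1 in the KO tumors where it was large, by Asn 2 in WT tumor 3 and by Asn 3 in WT tumor 2.

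Asp 1 had 2147 reads in KO tumor 1 (2.48%) and 19075 reads in WT tumor 4 (10.1%). Ser 1 had 1383 reads in KO tumor 1 (1.60%) and 18927 reads in WT tumor 4 (10.0%). These 2 libraries also overlapped outside the family, and whether the shared Asp and Ser sequences are separate occurrences in each was not tested. Asp 2 had 1223 reads in KO tumor 3 (1.00%) and Asp 3 had 188 reads in WT TDLN 4 (0.791%). Ala 1 had 2222 reads (2.72%) and Glu 1 had 868 reads (1.06%), both in WT tumor 3.

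Tumor and TDLN libraries of the same number did not share the leading family sequence of the TDLN library. Asp 3, the leading family sequence of WT TDLN 4, had 0 reads in WT tumor 4, and Asn 3, the leading one of KO TDLN 3, had 0 reads in KO tumor 3. Ser 1 had 3 reads in KO tumor 3 and 2 in KO TDLN 3, and Asp 1 had 1 read in each. A further sequence with Gly at x, counted with 7 reads in WT TDLN 4, passed the minimum of 0.01% and is not printed. Of these 10 sequences, 5 reached 0.01% in 2 or more libraries and 5 in 1 library.

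The number of counted family nucleotide sequences per library, with 1-base variants of a large sequence left out, was 2, 1 and 2 in KO tumors 1, 2 and 3, and 2, 4 and 3 in WT tumors 2, 3 and 4. The groups overlapped at 2 sequences. The mean was 1.67 ± 0.577 in KO tumors and 3 ± 1 in WT tumors (SD, n = 3 each), with p = 0.3 by the exact permutation test and 0.9 after adjustment. Leaving out KO tumor 3 and WT tumor 4 for their overlap gave a difference of -1.5, against -1.33 with all 6 libraries. With the 1-base variants kept, both groups averaged 5 sequences and the difference was 0. The WT counts include sequences of few reads that were far larger in another library. These were Asn 1 with 24 reads in WT tumor 2 and 11 in WT tumor 3, and Asn 2 with 68 reads in WT tumor 4. With sequences carried in another library left out, the means were 1.67 in KO and 2 in WT tumors, a difference of -0.333. The effective number, which weights sequences by their reads, was 1.98, 1.00 and 1.30 in KO tumors 1, 2 and 3, and 1.05, 1.90 and 2.03 in WT tumors 2, 3 and 4. Its means were 1.43 ± 0.501 in KO tumors and 1.66 ± 0.533 in WT tumors (SD, n = 3 each), with an exact p = 0.7 and an adjusted p of 0.9. Without KO tumor 3 and WT tumor 4 the difference was 0.0189, so that its sign turned.

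Codon use showed which bases were shared. At residue 4, Ser, the 9 sequences used TCC in 4, TCT in 3 and TCA in 2. At residue 5, Arg, CGG was used by 7, with CGA and CGC in 1 each. At residue 8, Gly, GGG was used by 6, with GGA, GGC and GGT in 1 each. At x, Asn was AAC in 3 of 3 sequences and Asp was GAC in 3 of 3, while Ser, Glu and Ala were encoded by AGC, GAA and GCC. Residues 6 and 7 used ACT and GGG in all 9.

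Sequences encoding the same CDR3 differed at few bases. Among the 6 pairs with the same amino acid sequence, between 1 and 3 bases differed, with a median of 2. Counted from 1 at the first base of the CDR3, with the base of the sequence named first given first, Asn 1 and Asn 2 differed by C12T and G24T, and Asn 1 and Asn 3 by G15C and G24C. Asn 2 and Asn 3 differed by T12C, G15C and T24C. Asp 2 and Asp 3 differed by A24G alone, although they were found in KO tumor 3 and in WT TDLN 4. The 30 pairs with different residues at x differed at 2 to 4 bases, with a median of 3.

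Among all TRB sequences, several DNA sequences for 1 CDR3 were uncommon. Of 344 CDR3 amino acid sequences with a nucleotide sequence at 0.01% or more, 24 (6.98%) had at least 2 such nucleotide sequences and 4 (1.16%) had at least 3. The Asn and the Asp member of the family were 2 of those 4. At 1% of a library or more there were 80 CDR3 sequences, which held 7 groups whose members differ at 1 fixed position. The family was the largest of them with 5 members, and the next had 3. The family was picked for being such a group, and these ranks are a description.

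The end and the middle of the family's CDR3 were also found in other receptors of these libraries. Of 362 counted nucleotide sequences outside the family, 32 encode a CDR3 that ends in QDTQYF, and 31 of those 32 end in the same 18 bases as the family. The residue before that end was Asn in 10 of the 32 (31.3%), each time AAC, Gly in 8 and Ser in 5. The run ACTGGGGG, searched on the coding strand, was present in 9 of 9 printed family sequences and in 49 of the 362 others (13.5%).

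Many further family and neighbour sequences were 1-base variants of a large sequence in the same library, which were set apart where the parent had at least 100 times their reads. In KO tumor 2, 24 of 30 family nucleotide sequences were such variants, with 291 reads, and in WT tumor 4 it was 46 of 55, with 354 reads. Across the 6 tumor libraries variants held between 0.395% and 0.921% of family reads. KO TDLN 3 had none and WT TDLN 4 had 5 variants with 5 reads. Base changes from sequencing, amplification or assembly and rare true sequences cannot be told apart in these counts.

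Every base of a sequence can change in 3 ways, so each clone has 135 possible 1-base variants. Of those of Asn 1, 82 were seen in KO tumor 2, with 667 reads or 1.63% of the clone's reads and a median of 6 reads over the variants seen. In KO tumor 3, 69 were seen, with 428 reads or 2.67% and a median of 2. Over the 10 pairs of a clone and a library with at least 1000 reads, 480 variants were seen with 2193 reads. Transitions made up 74.1% of those reads. C-to-T changes took 28.3%, A-to-G changes 23.0% and G-to-A changes 14.0%.

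A few variants stood far above the others of their clone: 8 had at least 10 times the median. The C11T variant of Asn 1, a neighbour with Phe in place of Ser at residue 4, had 147 reads in KO tumor 3, or 0.918% of the clone (0.781% to 1.08%), and 73.5 times the median. In KO tumor 2, where Asn 1 was larger, the same variant had 6 reads or 0.0146%. C36T of Asn 1 had 29 reads in KO tumor 3 (0.181%) and 14 in KO tumor 2 (0.0341%). Of the 21 variants of Asn 1 with at least 10 reads, 3 had intervals that did not overlap between the libraries, 1 of them higher in KO tumor 2. The others of these 21 had overlapping intervals, which are wide where KO tumor 3 had few reads, as for G8A with 1 read. Variants of fewer reads were not compared.

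In WT tumor 4 the A25G variant of Ser 1 had 88 reads or 0.465% of the clone, and in KO tumor 1 it had 9 reads or 0.651%. It encodes the member with Gly at x. Another nucleotide sequence of the Gly member lies 1 base from Asp 1, by A26G, and had 30 reads in WT tumor 4. The Gly reads of WT tumor 4 thus included 1-base variants of 2 large sequences. A16G of Ser 1, a neighbour with Ala in place of Thr at residue 6, had 66 reads or 0.349% of the clone in WT tumor 4. Between KO tumor 1 and WT tumor 4, none of the 4 variants of Asp 1 and none of the 8 variants of Ser 1 compared had intervals that did not overlap. In KO tumor 1 these clones had only 2147 and 1383 reads and no such variant had more than 9. Its intervals are therefore wide, and the overlap says little of likeness between the libraries. A25G of Asn 1, which turns Asn into Asp at x, had 74 reads in KO tumor 2, so that nearly all of the 75 Asp reads of that library lay 1 base from Asn 1.

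**Figure D3:**
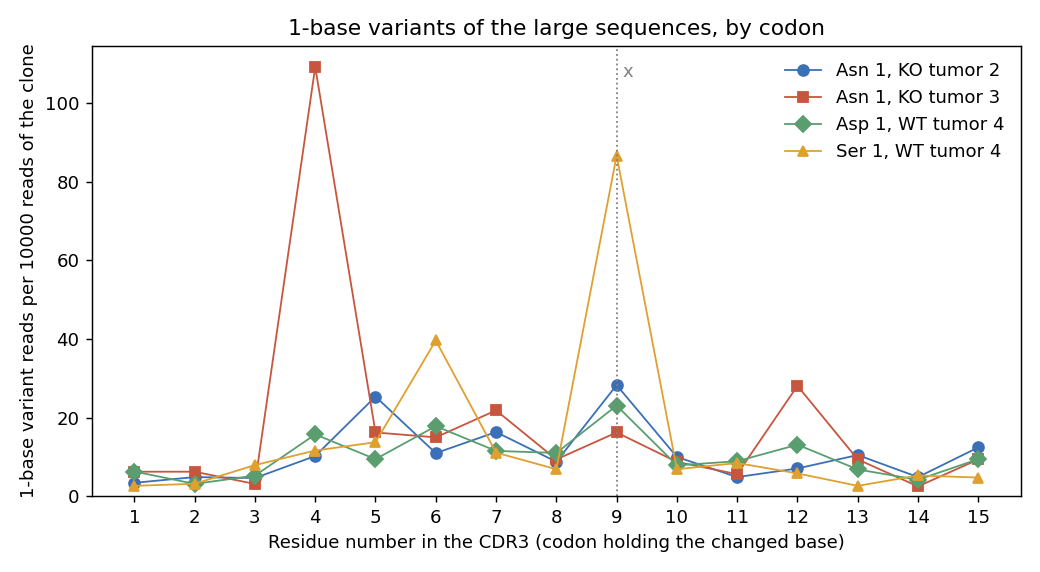
Reads of 1-base variants per 10000 reads of the clone (vertical axis) by the residue whose codon holds the changed base (horizontal axis), for 4 pairs of a clone and a library; the dotted line marks x. Asn 1 in KO tumor 3 has a peak at residue 4, where C11T has 147 reads, that is absent from Asn 1 in KO tumor 2; Ser 1 in WT tumor 4 has peaks at residues 6 and 9.

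The neighbours were many but small. The 207 neighbour sequences had 1363 reads in all, or 1.14% of the reads of the family, and 172 of them had fewer than 10 reads in all, 73 of these a single read. A stop codon was present in 13. Of the 1363 neighbour reads, 1295 lay in 1-base variants of a large family sequence, and no nucleotide sequence among the remaining 68 reads had more than 2 reads. The neighbour with Phe at residue 4 and Asn at x was the only one at 0.1% or more, with 148 reads or 0.121% of KO tumor 3, and the next, with Ala at residue 6 and Ser at x, had 67 reads or 0.0355% of WT tumor 4. Neighbours with Asn at x held 64.3% of the neighbour reads, beside 61.2% of the family reads with Asn. The neighbour with Pro at residue 4 and Asn at x was found in 5 libraries, with 55 reads in all and at most 0.0227% of a library. By position, changes at residue 4 held the most neighbour reads, 279, 148 of them with Phe in KO tumor 3, and changes at residue 1 held the fewest, 31.

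T cells carry an alpha chain (TRA) beside the beta chain, and TRA CDR3 sequences join a V and a J segment with no D segment. Bulk libraries do not record which alpha chain stood with which beta chain, so TRA values are given beside the family and not as its partners. The largest TRA sequence of each of the 8 libraries is shown because these are the alpha chains most read beside the family. They are written 5′ to 3′ on the coding strand, in lower case throughout, from the mouse TRA locus on chromosome 14, and numbered in the order of the libraries.
Alpha 1: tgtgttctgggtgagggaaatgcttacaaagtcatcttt
Alpha 2: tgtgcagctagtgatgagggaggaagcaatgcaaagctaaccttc
Alpha 3: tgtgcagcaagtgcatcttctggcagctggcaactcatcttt
Alpha 4: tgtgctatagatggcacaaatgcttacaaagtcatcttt
Alpha 5: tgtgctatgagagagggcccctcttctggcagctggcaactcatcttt
Alpha 6: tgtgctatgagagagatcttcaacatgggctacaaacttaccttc
Alpha 7: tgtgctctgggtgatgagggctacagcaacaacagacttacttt
KO tumors 2 and 3, the libraries with Asn 1, shared their largest TRA sequence, Alpha 2, which uses TRAJ42. It held 35.6% of productive TRA reads in KO tumor 2 and 20.8% in KO tumor 3, and WT tumor 2 had 11 reads of it, WT tumor 3 had 5 and WT tumor 4 had 1. The next largest of KO tumor 2 used TRAJ27 (15.3%) and TRAJ48 (8.25%), and those of KO tumor 3 used TRAJ7 (10.1%) and TRAJ4 (7.55%).

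In WT tumor 3, which held Asn 2, Ala 1 and Glu 1, the largest was Alpha 4 with TRAJ30, at 41.5%, before sequences with TRAJ21 at 16.1% and TRAJ42 at 11.2%. Alpha 4 was also the third in KO TDLN 3, at 10.5%. WT tumor 2, which held Asn 3, had 1 dominant TRA sequence, Alpha 3 with TRAJ22, at 85.7% of productive TRA reads, while its family share was 7.58% of TRB reads. Sequences with TRAJ18 (5.78%) and TRAJ50 (3.59%) came next. Alpha 3 was read in 6 of the 8 libraries.

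KO tumor 1 and WT tumor 4, which both held Asp 1 and Ser 1 above 1%, had different leading TRA sequences. In KO tumor 1 the largest was Alpha 1 with TRAJ30, at 17.4%, and the next used TRAJ42 (11.3%) and TRAJ38 (10.3%). In WT tumor 4 the largest was Alpha 5 with TRAJ22, at 20.9%, and the next used TRAJ32 (17.8%) and TRAJ23 (13.6%). Alpha 5 was also present in KO tumor 1, at 3.19%, and so were the TRAJ32 sequence, at 3.56%, and the TRAJ23 sequence, at 3.38%. Alpha 1 and the TRAJ42 and TRAJ38 sequences of KO tumor 1 had 0 reads in WT tumor 4. The TRAJ23 sequence is listed as GTYNQGKLIF, which does not begin with Cys as the others named here do.

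In KO TDLN 3 the largest was Alpha 6 with TRAJ9, at 17.1%, followed by a TRAJ42 sequence at 16.1%. In WT TDLN 4 a single sequence, Alpha 7 with TRAJ7, held 77.6%, and it had no read in the other 7 libraries. The next used TRAJ30 (2.77%) and TRAJ28 (2.45%).

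**Figure D4:**
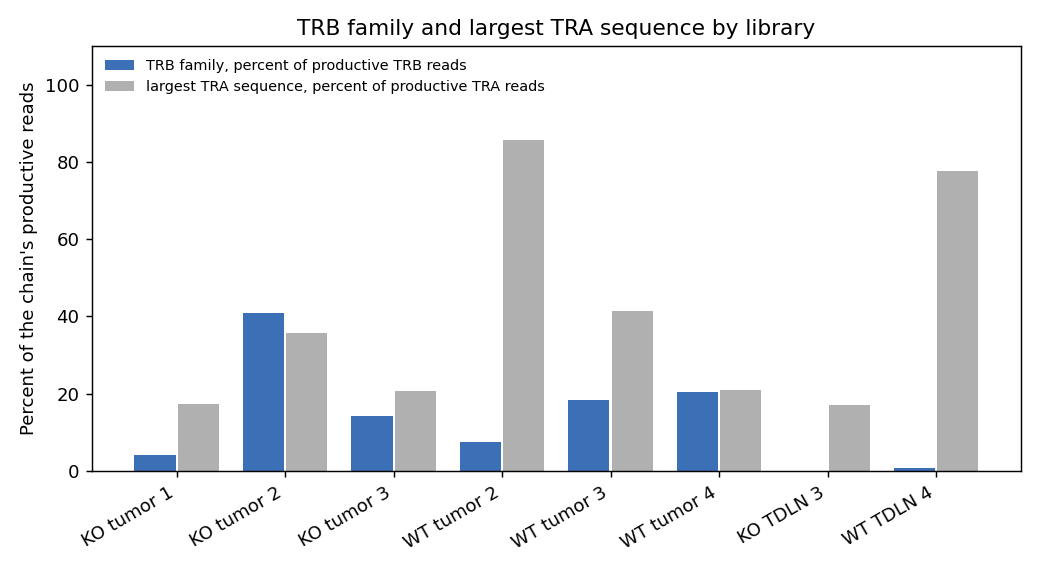
Percent of productive reads of its chain (vertical axis) for the TRB family (blue) and for the largest TRA sequence (grey) in the 8 libraries. The family and the largest TRA sequence have 40.8% and 35.6% in KO tumor 2, and 20.4% and 20.9% in WT tumor 4. In WT tumor 2 they have 7.58% and 85.7%. The chains come from separate deposited lists with unlike TRA counts, so nearness of 2 bars is a description only.

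Nucleotide sequences at 1% or more in both of 2 libraries were found in few pairs. KO tumor 2 and KO tumor 3 shared 9 TRA and 6 TRB sequences at that level, 1 of the TRB sequences being Asn 1. KO tumor 1 and WT tumor 4 shared 5 TRA and 7 TRB sequences, 2 of them Asp 1 and Ser 1. WT tumor 3 and KO TDLN 3 shared 7 TRA and 5 TRB sequences, none of the family, although the family was 18.4% of WT tumor 3. WT tumor 2 and WT tumor 3 shared 1 TRB sequence, which is no member. Family sequences were thus shared at 1% or more in the 2 pairs of tumor libraries that also shared other TRB and TRA clones.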

How the data were processed

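TCR transcripts were sequenced from sorted Rpl18 tetramer+ CD8+ T cells. Primers specific for TCR transcripts were used on polyA RNA, per the labels' protocols. GRCm39 is the build named in the submitters' processing notes. The deposited count and fraction of each CDR3 are TRUST4 output, per the file headers, which give no version. The authors' fraction is relative to the chain total of a library. Shares here were computed from the deposited counts over productive TRB or TRA reads. TRB counts came from the deposited list of all chains and TRA counts from a separate deposited TRA list. The lists differ in TRA reads: WT tumor 3 has 8403 in the first and 56454 productive ones in the second. WT TDLN 4 has 3038 and 15832. Productive reads exclude rows with a frame shift, a stop codon or an unread base; they were 91.9% to 98.9% of TRB reads. TRAJ7 rows with a length of 2 above a multiple of 3 (495 rows, 6.84% of TRA reads of the 8 libraries) were treated as in frame and translated over complete codons. Rows of a family sequence with a TRA V name (3 rows, 3 reads) were left out.

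A nucleotide sequence 1 base from another with at least 100 times its reads in the same library was set apart as a variant, and sequences were counted from 0.01% of productive TRB reads. Named sequences were family members at 1% or more and neighbours at 0.1% or more in any library, the largest nucleotide sequence of each such residue and of each tumor library, the largest 3 TRA sequences per library, and sequences found in 6 or more of the 8 libraries. The members, lists and rules were chosen with earlier results of these data known. KO and WT tumors were compared by exact two-sided permutation tests over libraries (scipy 1.17.1, Python 3.11.15), with Benjamini-Hochberg adjustment over 3 values. The rule that finds variants was tested on simulated random sequences with 1 uniform error rate. That test did not cover true clones that lie 1 base apart, or error rates that differ between bases. Alternatives were another minimum, another variant threshold, all assembled reads as denominator, equal numbers of family reads, the replicate block and leaving out libraries. The replicate block joined KO and WT libraries of equal number, which is an assumed pairing. Germline TRB segment sequences were not used here.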

Additional observations from a re-analysis of the deposited data

Results flagged for a closer look

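The family was also present in TDLN libraries, which the comparison of KO with WT tumors does not use. KO TDLN 3 held it at 0.0214% of productive TRB reads and WT TDLN 4 at 0.842%, both above the share that 3 reads would give there. Each is 1 library, and the difference between them was not tested.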

How the results depend on the processing

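The family share, KO minus WT in tumors, ranged from -6.28 to 12.1 percentage points over the alternatives that leave out 1 library. The value without KO tumor 2 is the one that reversed. The Asn share ranged from -25.3 to 36.6 percentage points and turned negative without KO tumor 2 (-13.3), without KO tumor 3 (-9.78) and without WT tumor 4 (-25.3). It was -39.6 with KO tumor 3 and WT tumor 4 both left out, which brought the effective number to 0.0189. The number of nucleotide sequences ranged from -1.83 to -0.833 on leaving out 1 library. It was -0.333 with sequences carried in another library left out, -0.368 at equal numbers of family reads and 0 with 1-base variants kept. The effective number ranged from -0.534 to -0.0147. With replicate block over the shared numbers 2 and 3, the differences were 14.5 for the share and 6.79 for the Asn share. They were -1.5 for the number of sequences and -0.319 for the effective number. The smallest p of the exact permutation test is then 0.5, and no call changed. Joining KO and WT libraries of equal number is an assumption, because no batch or pairing is recorded for them. WT tumor 2 is also numbered 1 in the deposited data, so its place in a block is less certain still. The lowest p of the exact permutation test over the alternatives was 0.1, for the number of sequences without WT tumor 2. That is the smallest p that 3 against 3 libraries allow, and fewer libraries allow none smaller. A lower value was therefore not possible. No molecular identifiers are described, so read numbers cannot be taken as numbers of cells, and 3 libraries a group limit what could be detected.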

Other observations

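Among CDR3 sequences of the same length that differ from the family at 2 further positions, which lie outside the rule for neighbours, 55 were found with 4758 reads. Of these reads, 4694 belonged to 1 sequence in KO tumor 3, with Asp at residue 5, Ala at residue 6 and Asn at x, where it made up 3.84% of productive TRB reads. No other such sequence reached 0.1% of a library. It was singled out after its values were seen.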
